A study of Schizosaccharomyces pombe with 5 samples.

Results

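The ade genes of the fission yeast Schizosaccharomyces pombe encode the enzymes that build purine nucleotides from simple precursors. The 10 genes ade1 to ade10 were taken by their symbols in the platform annotation. All 10 were on the array, each with 2 oligonucleotides, and all 10 were measured on every array, among 4907 genes so measured. They are given here in the order of the pathway, with ade6 also read as a marker of the strain.

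Transcripts were measured on 5 spotted oligonucleotide arrays with a Cy5 and a Cy3 channel, from cells grown at 30 °C. By the labels, cDNA of wild-type cells was in Cy3 throughout, and Cy5 carried wild-type cDNA on 2 arrays, called W1 and W2 here, and cDNA of the tra1-1 mutant on 3, called T1, T2 and T3 by their replicate numbers. The letters stand for the labels only. The tra1 gene encodes the fission yeast relative of human TRRAP, a scaffold of the SAGA coactivator, and the series asks about its control of Wee1, a kinase that delays mitosis. The labels give no medium, mating type, ade6 allele or other marker for either strain, do not describe the tra1-1 mutation, and call the repeats independent without naming separate cultures, so p-values measure only the spread between arrays.

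Purine nucleotides are assembled on a ribose phosphate, ring atom by ring atom, until inosine monophosphate (IMP) is reached. IMP is then turned into AMP through adenylosuccinate, or into GMP through xanthosine monophosphate. In fission yeast, loss of ade6 or ade7 makes colonies red on little adenine, since a coloured product of the preceding intermediate accumulates, and ade6 is for that reason a common marker in laboratory strains.

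Values are centred log ratios. Each is the mean of a gene's oligonucleotides, with the median of the array set to 0, taken as log2 of Cy5 over Cy3. Neither the log base nor the direction is stated with the values, so every sign below would turn if the ratio were Cy3 over Cy5. A ratio compares the dyes for one gene and gives no level of its transcript, so the genes are not ranked by abundance. In bulk samples, fewer cells of a type and less RNA per cell cannot be told apart. The arrays gave 9695 to 9832 probe values each.

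The tra1 ratio went against the labels. It was -1.41 and -2.04 on W1 and W2, where by the label both dyes carry the same kind of RNA. It was 0.04 and 0.02 on T1 and T2, and -2.21 on T3. Over all genes array T3 correlated more closely with the W arrays (r = 0.72 and 0.74) than with the others labelled tra1-1 (0.47 and 0.47). The values do not tell which arrays held which RNA. Groups keep their labels here, and if W1, W2 and T3 held mutant cDNA in Cy5 and T1 and T2 wild-type cDNA in both dyes, the differences that T1 and T2 carry would have the opposite sign. The difference of each ade gene is also given without array T3.

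No ade gene passed the test between the groups as labelled, and on all 5 arrays the largest differences were those of ade8, ade2 and ade10. ade8 and ade2, which together make AMP from IMP, were 1.50-fold and 1.31-fold higher on average on the T arrays, and ade10, which closes the ring to IMP, was 1.23-fold higher. The places of ade10 and ade2 were not stable. Without array T3 ade7 (0.31 on the log2 scale) stood above ade10 (0.30). Without W1 ade10 (0.44) stood above ade2 (0.34). Without T1 ade7 (0.38) and ade3 (0.31) stood above ade2 (0.30). In limma's test over all genes, 0 of the 10 ade genes differed at an adjusted p under 0.05, where 0% of all genes were called, and the smallest adjusted p among them was 0.674. Unadjusted, 2 of 10 had a p under 0.05, ade8 and ade2, against 7.11% of all 4907 genes, and without array T3 the same 2 did so, against 17.2%. Of the 10 genes, 8 had a difference above 0, against 49.4% of all genes. Their median difference was 0.21 on the log2 scale, while the 25th and 75th percentiles of all genes were -0.15 and 0.13. Without array T3, 9 of the 10 differences were above 0, against 49% of all genes, and their median was 0.22. All T arrays lay above both W arrays for 4 ade genes (ade3, ade8, ade10 and ade2), against 11.3% of all genes, and all lay below them for 0 ade genes, against 12% of all genes. That separation was in the means. By single oligonucleotide it held for ade8 on oligonucleotide 1 only, for ade10 and ade2 on oligonucleotide 2 only, and for ade3 on neither. Without array T3 the groups were apart upwards for 5 ade genes, ade9 added, against 23.6% of all genes.

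**Figure D1:**
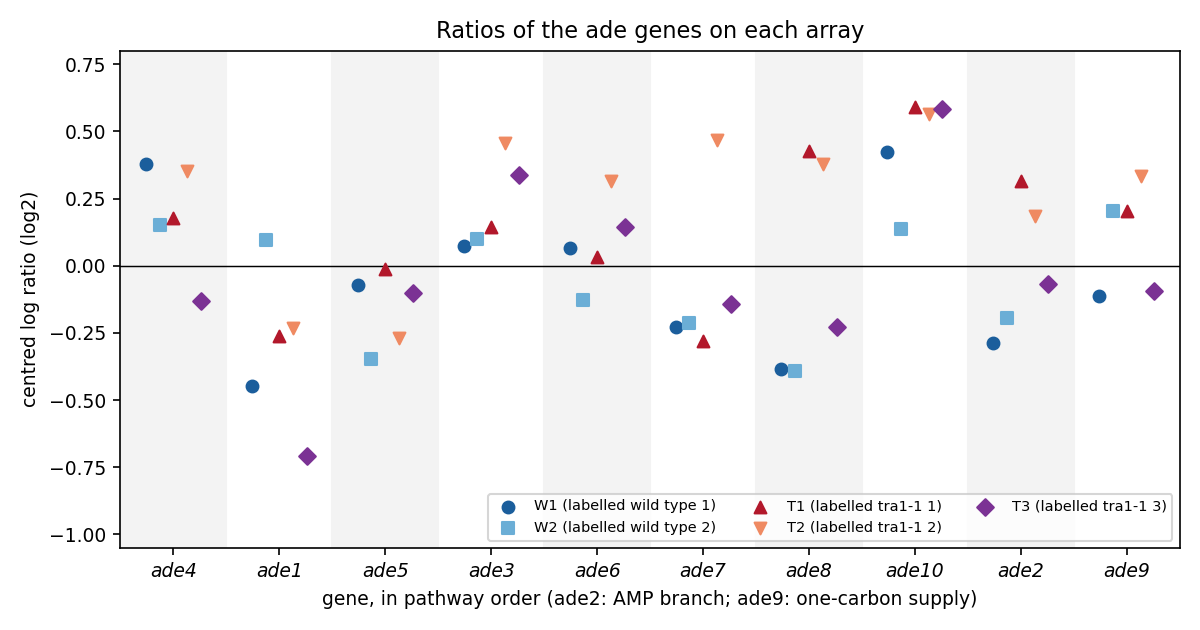
Centred log ratio (log2, vertical axis) of each ade gene (horizontal axis, pathway order) on the 5 arrays, 1 point per array and gene, with marker shape and colour giving the array by its label. For ade8 arrays T1 and T2 stand at 0.43 and 0.38 and the other 3 between -0.39 and -0.23.

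The pathway opens with ade4, the amidotransferase that commits ribose phosphate to purines. Its ratios were 0.38 and 0.15 on W1 and W2, and 0.18, 0.35 and -0.13 on T1, T2 and T3. The groups overlapped, and array T3 was the only one below 0. The difference, tra1-1 minus wild type, was -0.13 ± 0.19 (SE, limma adjusted p = 0.91), and it was 0.0020 without array T3, -0.017 without W1 and -0.24 without W2 or without T2. The ade4 oligonucleotides disagreed, with differences of 0.26 and -0.52, a gap wider than in 97.8% of the 4673 genes with both oligonucleotides on every array.

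ade1 encodes a protein with a pair of activities, glycinamide ribotide synthetase and aminoimidazole ribotide synthetase, so it serves an early step and a later one. Its ratios were -0.45 and 0.10 on W1 and W2, and -0.26, -0.23 and -0.71 on T1, T2 and T3. These values spread further than those of most ade genes, over a range of 0.80 against a median range of 0.47 for all genes, and the lowest was again array T3. ade1 had the lowest difference of the family, -0.22 ± 0.21 (SE, limma adjusted p = 0.848). Without that array it was -0.071, without W1 it was -0.50, and without W2 its sign turned to 0.046.

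Between the ade1 steps lie ade5, the glycinamide ribotide transformylase, and ade3, which turns the formylated intermediate into an amidine. ade5 stood at -0.07 and -0.35 on the W arrays and at -0.01, -0.27 and -0.10 on the T arrays. It was below 0 on all 5 arrays, as were 17.1% of all genes, and its difference was 0.08 ± 0.17 (SE, limma adjusted p = 0.948). Of its oligonucleotides only the first was below 0 throughout. Oligonucleotide 2 was above 0 on W1 (0.18), T1 (0.02) and T3 (0.115), and below 0 on W2 (-0.33) and T2 (-0.17). For ade3 the ratios were 0.07 and 0.10 on the W arrays, and 0.14, 0.46 and 0.34 on the T arrays. Those groups did not overlap, though their nearest values were 0.0985 on W2 and 0.1435 on T1, and the difference of 0.23 ± 0.16 (SE) did not pass (limma adjusted p = 0.799). Without array T3 the ade5 and ade3 differences were 0.07 and 0.22. That of ade5 was 0.22 without W1, -0.054 without W2, 0.025 without T1 and 0.15 without T2. The ade3 oligonucleotides gave the same difference, 0.23 and 0.22, although their mean ratios over the 5 arrays lay 0.78 apart. On each ade3 oligonucleotide alone the groups overlapped. T1 (-0.24) lay below W1 (-0.22) on oligonucleotide 1, and T1 (0.52) below W2 (0.59) on oligonucleotide 2.

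ade6 (SPOM_SPCC1322.13) encodes the aminoimidazole ribotide carboxylase, the marker enzyme whose loss gives red colonies. Its ratios were 0.07 and -0.13 on the W arrays, and 0.03, 0.32 and 0.14 on the T arrays. The gene stayed within 0.32 of 0 on every array, and the groups overlapped. Its oligonucleotides differed between groups by 0.16 and 0.23, and the mean by 0.20 ± 0.17 (SE, limma adjusted p = 0.828, 95% interval -0.17 to 0.56). The value was 0.21 without array T3, 0.29 without W1, 0.097 without W2 and 0.12 without T2. A marker allele that is a point mutation need not alter the amount of transcript, so the ratio does not tell which ade6 allele a strain carried. The list of strain markers to which it belongs (ura4, leu1, his3, his7, lys1, arg3, ade6 and ade1) had medians of -0.38 and -0.36 on the W arrays and -0.16, 0.01 and -0.47 on the T arrays.

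ade7, which adds aspartate to the carboxylated ring, stood at -0.23 and -0.21 on the W arrays. It was -0.28, 0.47 and -0.14 on T1, T2 and T3. Array T2 stood alone, and both oligonucleotides were high there, at 0.46 and 0.47. The difference of 0.24 ± 0.22 (SE, limma adjusted p = 0.843) became 0.01 without that array, 0.38 without T1 and 0.31 without T3.

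ade8 (SPOM_SPBC14F5.09C) encodes adenylosuccinate lyase, which acts once on the way to IMP and again in the last step to AMP. Its ratios were -0.38 and -0.39 on W1 and W2, and 0.43, 0.38 and -0.23 on T1, T2 and T3. Arrays T1 and T2 stood far above the rest, and array T3 lay close to the W arrays. Among all genes ade8 stood at percentiles 11.5 and 11.4 on the W arrays, 93.2 and 89.8 on T1 and T2, and 28.8 on T3. The difference was 0.58 ± 0.21 (SE), rank 74 from the highest of 4907 genes (limma adjusted p = 0.674, 95% interval 0.12 to 1.05). Without array T3 it was 0.79 ± 0.16 (SE), and limma called it (adjusted p = 0.00567). In that fit 1 of the 10 ade genes was called, against 4.18% of all genes.

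The ade8 oligonucleotides shared a direction but not a size. Oligonucleotide 1 was at -0.23 and -0.35 on the W arrays and at 0.87, 0.55 and 0.40 on the T arrays, with the groups well apart. Oligonucleotide 2 was at -0.53 and -0.44 on the former and at -0.02, 0.20 and -0.86 on the latter, where array T3 was the lowest of all. Their differences were 0.90 ± 0.23 and 0.26 ± 0.29 (SE), and neither passed when each probe was its own row (limma adjusted p = 0.556 and 0.897). Without array T3 they were 1.00 and 0.58, and oligonucleotide 1 passed (limma adjusted p = 0.0334 and 0.251). The gap between them exceeded that of 94% of genes. On array T3 the low ade8 mean therefore rested on oligonucleotide 2.

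ade10 (SPOM_SPCPB16A4.03C) encodes the enzyme that adds the last formyl group and closes the ring to IMP. It had ratios of 0.42 and 0.14 on the W arrays, and 0.59, 0.56 and 0.58 on the T arrays. It was above 0 everywhere and nearly identical on the T arrays, with a mean of 0.58 ± 0.01 (SD, n = 3) against 0.28 ± 0.20 (SD, n = 2) on the W arrays. The difference of 0.30 ± 0.16 (SE) did not pass (limma adjusted p = 0.747), and it was 0.30 without array T3 as well, but 0.44 without W1 and 0.15 without W2. It came from oligonucleotide 2, which differed by 0.61, whereas oligonucleotide 1 differed by -0.01.

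ade2 (SPOM_SPAC144.03), adenylosuccinate synthetase, opens the branch from IMP to AMP. Its ratios were -0.29 and -0.19 on the W arrays and 0.32, 0.19 and -0.07 on the T arrays. On the mean of the oligonucleotides all T arrays lay above the others, with T3 the closest to them. On oligonucleotide 1 alone the groups overlapped, with W2 (0.05) above T2 (0.0040) and T3 (-0.17). The difference was 0.38 ± 0.17 (SE, limma adjusted p = 0.695, 95% interval 0.01 to 0.76), and both oligonucleotides lay above 0, at 0.19 and 0.58. Without array T3 the difference was 0.49 ± 0.16 (SE, limma adjusted p = 0.0993). ade2 and ade8 had the largest differences of the family with or without that array. The ade2 difference was 0.43 without W2 and 0.36 without T2. Without W1 it was 0.34, below that of ade10 (0.44). Without T1 it was 0.30, below those of ade7 (0.38) and ade3 (0.31).

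ade9 encodes a tetrahydrofolate synthase that supplies formyl groups, outside the line of the ring-building steps. It stood at -0.11 and 0.20 on the W arrays and at 0.20, 0.33 and -0.09 on the T arrays, and the groups overlapped. Its difference was 0.10 ± 0.19 (SE, limma adjusted p = 0.932), and 0.22 without array T3. Leaving out array W1 turned the sign to -0.055, it was 0.26 without W2 and 0.011 without T2, and the oligonucleotides pointed in opposite directions, at -0.20 and 0.41.

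**Figure D2:**
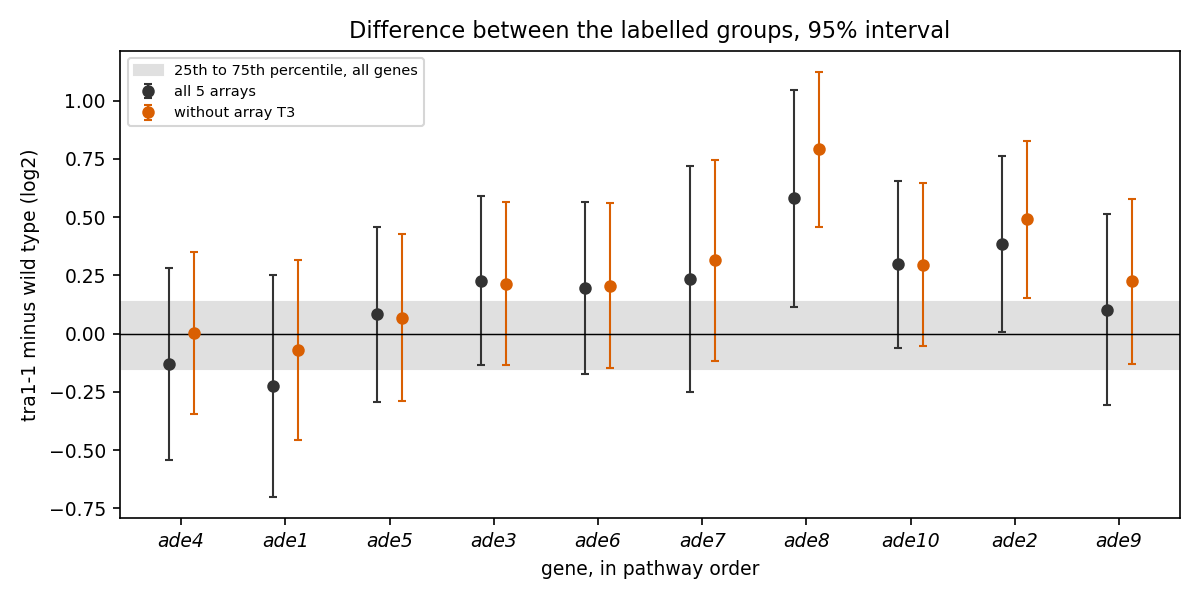
Difference tra1-1 minus wild type (log2, vertical axis) of each ade gene in pathway order, with its 95% interval from limma, on all 5 arrays (dark) and without array T3 (orange); the grey band spans the 25th to 75th percentile of all 4907 genes. The ade8 difference moves from 0.58 to 0.79, and in both fits only the ade8 and ade2 intervals lie above 0.

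**Figure D3:**
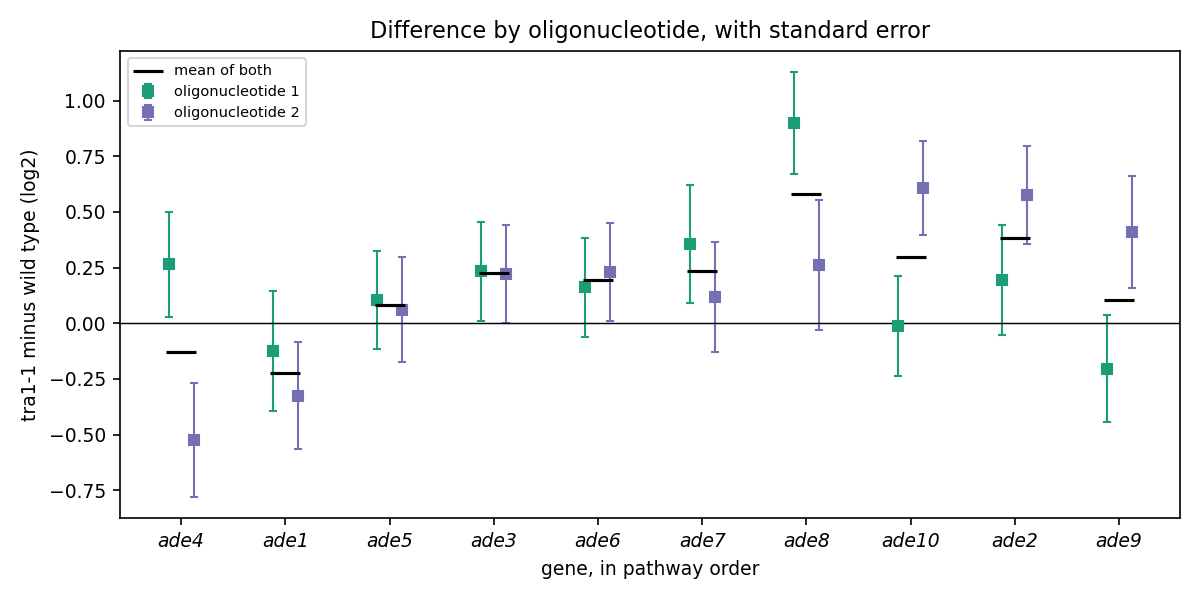
Difference tra1-1 minus wild type (log2, vertical axis) by oligonucleotide, with standard errors, and the difference of the mean of both as a black bar. ade3, ade5 and ade6 have oligonucleotides within 0.07 of each other, and those of ade4, ade10 and ade9 have opposite signs.

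The oligonucleotides of several ade genes disagreed. The median gap between the differences of a gene's oligonucleotides was 0.31 over the 10 ade genes and 0.22 over 4673 genes. Oligonucleotides of a gene correlated across genes, which are no replicates, with r = 0.42, 0.41 and 0.39 on W1, W2 and T3, and with 0.13 and 0.11 on T1 and T2. The higher ade ratios were thus on the arrays whose oligonucleotides agreed least, and the part this plays was not tested.

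By array, the family stood highest on array T2. Its median was -0.09 and -0.02 on W1 and W2, and 0.16, 0.34 and -0.10 on T1, T2 and T3. On array T2, 7 of 10 ade genes were above the 75th percentile of all genes, against 4 on T1, 2 on W1 and T3, and 0 on W2. For 8 of the 10 genes the highest of the 5 ratios was on T1 or T2, as it was for 38.6% of all genes. The exceptions were ade4 and ade1. Array T3, where tra1 was low, gave a family median beside those of the W arrays. On the same array 6 of the 10 genes were above both W1 and W2, against 34.9% of all genes, and 2, ade1 and ade4, were below both, against 36.9%. Those above were ade10 and ade3, at 0.58 and 0.34, together with ade6, ade7, ade8 and ade2.

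The ratios themselves were then tested against 0. On the W arrays, 0 of 10 ade genes passed (adjusted p under 0.05, limma), against 11.4% of all genes, and 2 of 10, ade8 and ade10, had an unadjusted p under 0.05, against 30.1% of all genes. On the T arrays, 1 of 10 passed, ade10 (0.58 ± 0.10, SE, limma adjusted p = 0.0247), against 7.83% of all genes. A dye effect stays in that ratio, and ade10 was also above 0 on W1 and W2. It was not called without array T1 or without T2, and without T3 ade8 was called too (limma adjusted p = 0.00648), where 22.4% of all genes were.

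Genes around the pathway are given from lists named for this comparison, and 0 of their members passed limma's test between the groups, as did 0% of all genes. The counts of list members above 0 stand beside 49.4% of all genes above 0. The guanine branch and the nucleotide kinases had 5 of 5 members above 0, with a median difference of 0.17. Its largest value was that of gua1, the IMP dehydrogenase that competes with ade2 for IMP, at 0.11 and 0.01 on the W arrays and 0.44, 1.03 and 0.05 on the T arrays. As for ade8, arrays T1 and T2 were high and T3 was not (difference 0.45 ± 0.25, SE, limma adjusted p = 0.747). Without T3 the gua1 difference was 0.68 (limma adjusted p = 0.0518), and without T2 it was 0.19. The guanylate kinase gene guk1 and the nucleoside diphosphate kinase gene ndk1 differed by 0.30 and 0.17, and by 0.085 to 0.51 and 0.046 to 0.36 over single arrays left out.

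Salvage and interconversion genes had 4 of 5 measured members above 0 and a median of 0.14. ada1, the AMP deaminase that returns AMP to IMP, was the exception, at 0.61 and 0.60 on the W arrays and 0.06, 0.41 and 0.19 on the T arrays. The groups were apart, with every T array lower, as for 12% of all genes. The difference was -0.39 ± 0.17 (SE, limma adjusted p = 0.685). Other differences were 0.32 for the adenine deaminase gene dea2 and 0.14 for the phosphoribosyltransferase gene hpt1, with 0.18 to 0.48 and 0.024 to 0.25 over single arrays left out.

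Histidine synthesis shares its ribose donor with the purine pathway and releases the intermediate that ade10 uses. All 7 measured members had a difference above 0, though that of his1 was 0.0002, and the median was 0.13. The largest value was that of his4, which encodes the synthase that makes imidazole glycerol phosphate and releases that intermediate. his4 stood at -0.54 and -0.48 on the W arrays and at 0.36, 0.14 and -0.47 on the T arrays. The groups were apart upwards, as for 11.3% of all genes, though by a narrow margin. The difference of 0.52 ± 0.23 (SE) was not called (limma adjusted p = 0.685). Without array T3 it was 0.76 and was called (limma adjusted p = 0.00926), as were 4.18% of all genes. Without T1 it was 0.35. his2 and his6 differed by 0.27 and 0.18, with 0.13 to 0.36 and 0.058 to 0.28 over single arrays left out.

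Pyrimidine synthesis, with 6 measured genes, had a median difference of 0.02 and 5 members above 0. ura1, which encodes the first enzymes of that pathway, differed by 0.37, ura5 by 0.10 and ura3 by 0.02, and over single arrays left out the last 2 ranged from -0.16 to 0.36 and from -0.090 to 0.13. The one-carbon folate genes had a median of 0.01, with 5 above 0 and 5 below, led by gcv2 (-0.28), dfr1 (0.26) and fol1 (0.23). Over single arrays left out these ranged from -0.44 to -0.13, from 0.060 to 0.48 and from 0.10 to 0.40. The list of strain markers had a median of 0.16 with 7 of 8 above 0, and its largest differences were those of arg3 (0.35), lys1 (0.33) and leu1 (0.30). Without T2 those of arg3 and lys1 were 0.11 and 0.16, and without T3 they were 0.70 and 0.57. It overlaps the ade, histidine and pyrimidine lists. Of the listed genes for the ribose donor, prs5 alone was measured, at -0.17 (-0.25 to -0.074 over single arrays left out). Without array T3 the list medians were 0.36 for the guanine branch, 0.22 for salvage, 0.27 for histidine, 0.09 for pyrimidines, 0.04 for folate genes and 0.24 for strain markers. In that fit his4 was called, 1 of 7 histidine genes, and arg3 (limma adjusted p = 0.0226), 1 of 8 strain markers. Of all genes 4.18% were called there.

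**Figure D4:**
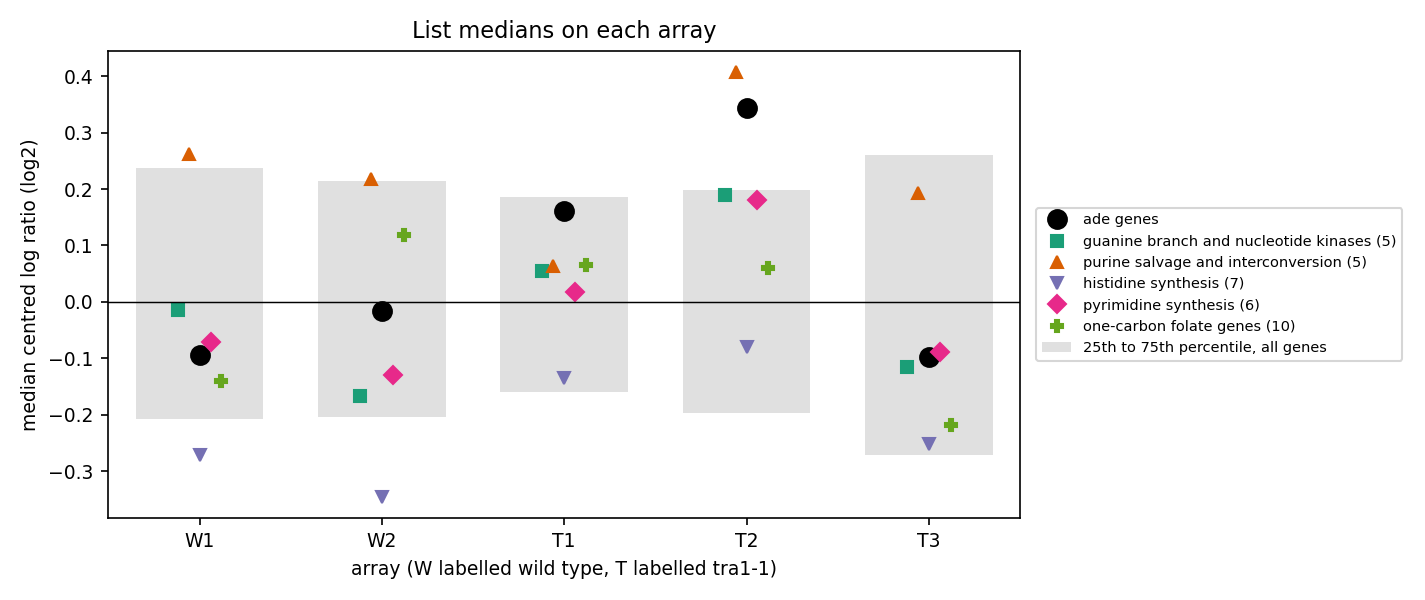
Median centred log ratio (log2, vertical axis) of the ade genes and of related gene lists on each array (horizontal axis, by label), with the number of measured genes in brackets and the 25th to 75th percentile of all genes as a grey bar. The ade median is 0.16 and 0.34 on arrays T1 and T2 and between -0.10 and -0.02 on the other 3.

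The course over the arrays was compared between the members and with other genes. The closest pair of members was ade3 and ade6, whose ratios differed by a root mean square of 0.08 over the 5 arrays once each gene's own mean was removed. Among 2641 named genes with at least the range of the family's median profile, those closest to that profile were SPOM_SPCC320.06, cem1, jmj1, wtf2 and plp2, at 0.03 to 0.05 by the same measure. For ade8, the closest of 460 genes were str3 (0.06), his4 (0.07) and SPOM_SPCC663.09C (0.07), all high on arrays T1 and T2 relative to the other 3. This is a description of 5 arrays and was not tested.

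Positions did not set the ade genes beside each other. Of the 10, 3 lie on chromosome I, 4 on chromosome II and 3 on chromosome III of the reference assembly, which was used only for gene order, and no ade genes were nearer than 114 protein-coding genes in that order. The neighbours of ade8, the Mediator subunit gene med7 and SPOM_SPBC14F5.10C, differed by 0.03 and -0.21 between the groups, and by -0.12 and -0.25 without T3. Those of ade2, iec1 and the ornithine decarboxylase gene spe1, differed by 0.10 and -0.10, and by 0.15 and -0.17 without T3.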

How the data were processed

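The authors deposited a ratio per probe and array on a log scale, read here as log2. What base, numerator, scanner, background correction or normalization they used is not given in the sources used here. Per the labels' protocols, reverse transcription started from some 30 ug of total RNA, each dye was coupled to some 1.5 ug of cDNA, and dyes were not swapped. Medians of the deposited columns W1, W2, T1, T2 and T3 were -0.23, -0.39, -0.43, -0.21 and -0.43, and were set to 0. The 2 oligonucleotides of a gene were averaged. Of 4929 genes and unnamed probe pairs, 4907 had a value on every array and were tested. The platform annotation left 182 probes unnamed and gave 44 several symbols. Of 4816 named genes, 4804, with all 10 ade genes, matched the gene table of ASM294v3. Intensities, loess and spot flags were not analysed here, and the number of arrays limits the precision (median standard error 0.17 for all genes).

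Group differences and W ratios came from 1 fit of all arrays in R 4.3.3 with limma 3.58.1 (lmFit, eBayes), and T ratios from a fit of those 3 arrays. Tests were 2-sided with Benjamini-Hochberg adjustment over all genes at 0.05, and the scripts were tested on simulated data. The members and gene lists were chosen with earlier results of these data known. All ade genes are named, with up to 3 members of each related list by the size of their difference, and the genes closest to the family's median profile and to ade8. Listed symbols not on the array were left out, and so were prs1, aah1 and ppo1, whose roles in this species were unsure or differ from those of the list. Alternatives were a replicate block, values as deposited, quantile and scale normalization, each oligonucleotide alone, other handling of missing values, array weights, a robust prior and the removal of single arrays. Leaving out T1 and T2 together was chosen after seeing the data. Plots were made in Python 3.11.15 (matplotlib 3.10.9).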

Additional observations from a re-analysis of the deposited data

How the results depend on the processing

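The median difference over the ade genes was 0.21 and lay between 0.14 and 0.28 under all 16 alternatives. All were less than 0.18 from it, the pooled standard deviation of the ade medians of the arrays within groups. That margin is wide beside 0.21, and most alternatives reuse the same arrays, so staying within it shows little. The number of ade genes called between the groups was 0 except for 1, ade8, with a replicate block (difference 0.79, limma adjusted p = 0.0011), with array weights (0.72, adjusted p = 0.0423) and without array T3 (0.79), a range of 0 to 1 when each array was left out; the shares of all genes called were then 6.7%, 1.94% and 4.18%. Whether replicate numbers pair the arrays could not be told. Same-numbered deviations from the group means correlated with r = 0.04 and -0.03 across genes, but the deviations of W1 and W2 mirror each other by construction. Array T3 has no partner, so the block drops it from the difference. Signs turned for ade4 (0.0020 with the block and without array T3, -0.24 to 0.0020 over single arrays left out, 0.26 on oligonucleotide 1), ade10 (-0.012 on oligonucleotide 1), ade1 and ade5 (without array W2, with ranges of -0.50 to 0.046 and -0.054 to 0.22 over single arrays left out) and ade9 (-0.20 on oligonucleotide 1, -0.055 without array W1 with a range to 0.26, -0.14 without T1 and T2, which left ade8 at 0.16). The other genes kept their direction in all 16. For ratios against 0 on the W arrays, 5 of 10 ade genes were called as deposited (31.8% of all genes), 6 with quantile normalization (49.2%) and 1 with array weights (24.2%), and 0 to 1 with an array left out (1 without T3, 27.9%). On the T arrays it was 2 as deposited (53.3%), with quantile normalization (59.8%) and on oligonucleotide 2 alone (11% of probes), and 0 to 2 with an array left out (0 without T1, 2.85%, or T2, 1.32%, and 2 without T3, 22.4%). Values as deposited and quantile-normalized values are not centred on 0, so those calls include each array's offset. Other causes were not tested. A lone array in a group was assumed to vary like the other group. Spot signal over background was not analysed here.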
